A study of Mus musculus with 36 samples.

Results

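The transcriptome of XX germ cells was compared between 13.5 and 11.5 days post coitum (dpc), the interval in which germ cells of the mouse fetal ovary leave the pluripotent-like primordial state and begin meiosis. The comparison used 6 arrays of the 36 in the series: 3 of XX germ cells at 13.5 dpc and 3 at 11.5 dpc, taken by their titles. The germ cells carried an Oct4 reporter and came from progeny of C57BL/6NJ on a mixed background, with no treatment or mutation other than the reporter in the labels. Female mice were time-mated, XX and XY gonads were pooled separately, the pools were dissociated with trypsin, and living fluorescent cells were collected by flow sorting after DAPI staining. For reference, the same interval was read in XY germ cells of the same reporter line (6 arrays) and in XX supporting cells, the precursors of granulosa cells (6 arrays), which carried Tg(Sry-EGFP)92Ei and were progeny of CD-1. Each Affymetrix Mouse Gene 1.0 ST array received 200 ng of total RNA, and a value below is a log2 expression value of the deposited table after each array was centred on a common median. Pou5f1, the gene that drives the Oct4 reporter, itself fell over the interval, as given below, so the gate and the measured change involve the same gene.

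Germ cells reach the gonad as primordial germ cells that still express pluripotency factors such as Nanog, Sox2 and Pou5f1. In the ovary, retinoic acid and BMP signals act on cells made competent by DAZL, STRA8 and MEIOSIN start the meiotic programme, and chromosomes form cohesin-based axes, break their DNA and pair through the synaptonemal complex. In the testis, retinoic acid is degraded, germ cells stop dividing, and NANOS2 directs them to the male fate.

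The 6 arrays carried the germ cell markers of their label. Ddx4, a germ cell RNA helicase, lay between 10.68 and 12.18 in them and at 6.72 or below in every supporting cell array, and the Y-linked gene Eif2s3y lay between 4.35 and 4.84 against 9.71 or above in XY germ cells. The summed level of 18 supporting cell markers was 119.7 to 122.6 at 11.5 dpc and 117.2 to 119.6 at 13.5 dpc, against 161.0 to 165.2 in XX supporting cells. Arrays of a group correlated with r from 0.979 to 0.9858 at 11.5 dpc and from 0.9752 to 0.9874 at 13.5 dpc across 19938 genes. Another array, titled as XX germ cells at 12.5 dpc, had Ddx4 at 4.87 and the stromal gene Tcf21 at 10.65 and went against its label. It was left out of the main fit and of the gene values and tests below, except those given with all 36 arrays. That alternative adds it back to its 12.5 dpc group. The differences between 11.5 and 13.5 dpc then stay the same, and only the shared spread and the p-values change. Whether replicates stem from separate pools of gonads is not stated in the labels. The spread behind each p-value is shared by all 35 arrays of the fit and is possibly technical. The median gene SD was 0.2064 and 0.1972 in XX germ cells at 11.5 and 13.5 dpc. In XX supporting cells it was lower, at 0.1025 and 0.1392.

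Between 11.5 and 13.5 dpc, genes of meiosis made up most of the 12 largest rises of XX germ cells. The pluripotency gene Tdgf1 and the glycolysis gene Pfkp were among the 12 largest falls. Of 19938 genes, 3805 differed between the stages (19.08%, limma, Benjamini-Hochberg adjusted p under 0.05), with 1653 higher (8.29%) and 2152 lower (10.79%) at 13.5 dpc. These shares are the background of every list count below. A rise of at least 1 log2 unit was found for 500 genes and a fall of that size for 568. Rises reached further than falls: 15 genes rose by 3 or more and 2 fell by as much. The median difference over all genes was -0.11, and quantile normalisation turned the split to 2042 higher and 1764 lower. Without replicate 3 of 13.5 dpc, 1056 genes were higher and 1569 lower. The 3 arrays of each stage did not overlap for 36.03% of all genes, and 3526 of the 3805 called genes were among these. Fewer cells of a type and less RNA per cell cannot be told apart in such bulk samples.

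The 12 largest rises were those of Stra8, Meioc, Taf7l, Tex12, Sycp1, Sycp2, Meiob, Spata22, Ccdc172, Tex101, Terb1 and Prdm9, with differences from 5.09 down to 3.24. Of these, 9 are genes of the 3 meiosis lists described next, while Taf7l encodes a subunit of the TFIID complex and Tex101 a germ cell surface glycoprotein. Taf7l, on the X chromosome, read 5.93, 6.13 and 6.95 at 11.5 dpc and 10.94, 10.27 and 11.51 at 13.5 dpc. The lowest late array of Taf7l thus stood more than 3 units above its highest early array. The 12 largest falls were those of Tdgf1, Gtsf1l, Pfkp, Hey1, Ankrd45, Mt2, Got1, Serp1, 1700019D03Rik, Lncenc1, H2bc4 and Efcab10, from -3.99 to -2.67. Tdgf1 encodes the NODAL co-receptor Cripto, Pfkp a phosphofructokinase, Got1 the cytosolic aspartate aminotransferase and Mt2 a metallothionein. Gtsf1l read 9.67, 9.63 and 9.49 early and 6.36, 6.17 and 5.99 late. Hey1, a transcriptional repressor downstream of NOTCH and BMP signals, read 10.99, 10.71 and 10.64 early and 8.30, 8.02 and 7.59 late.

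**Figure D1:**
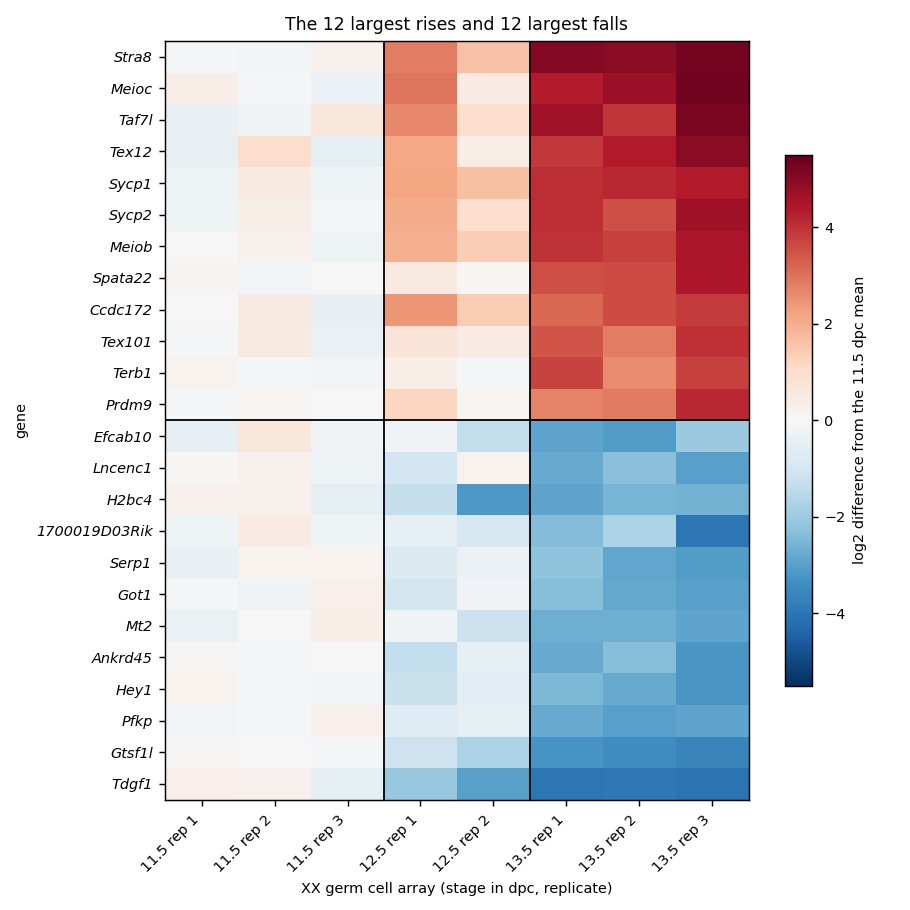
Heat map of the 12 genes that rose most and the 12 that fell most, one row per gene and one column per XX germ cell array, with 2 of 12.5 dpc between 3 of each end stage; colour is the log2 difference from the gene's 11.5 dpc mean. The 12.5 dpc columns lie mostly between the stages, with Spata22 and Terb1 still near their early level and H2bc4 close to its late level.

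Genes that start meiosis rose, Stra8 the most. Of 12 measured members of that list, 8 rose and none fell, with a median difference of 1.13 against -0.11 over all genes. Stra8, which encodes the retinoic acid-induced factor that triggers meiotic entry, read 5.09, 5.03 and 5.38 at 11.5 dpc, 7.96 and 6.79 at 12.5 dpc, and 10.23, 10.11 and 10.41 at 13.5 dpc. Its arrays at the ends of the interval formed tight, distant groups, and both middle arrays lay between them. The Stra8 difference was 5.09 ± 0.19 (standard error; 34.0-fold, adjusted p = 7.7e-22). Meioc, whose product works with YTHDC2 on the RNA of cells that enter meiosis, read 5.36, 4.95 and 4.69 early and 9.37, 9.69 and 10.29 late. That is a difference of 4.79 ± 0.31 (adjusted p = 2.54e-14). Ythdc2 itself rose by 1.25 ± 0.33 (adjusted p = 0.00586), a call lost without replicate 3 of 11.5 dpc (0.95, adjusted p = 0.0687). Rec8, the meiotic cohesin, read 6.40, 6.56 and 6.35 early and 8.82, 9.15 and 9.35 late, a rise of 2.67 ± 0.24. Dazl, the RNA-binding licensing factor, was already at 10.00, 10.34 and 10.10 and rose by 1.12 ± 0.26 to 10.92, 11.43 and 11.46, a call lost with all 36 arrays (adjusted p = 0.293). The ovarian BMP effector gene Zglp1 differed by 0.32 ± 0.17 and did not pass the test (adjusted p = 0.159), although it did so at 0.33 once the row sets of each array were aligned (adjusted p = 0.0279).

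The promoters of 5 genes of the 3 meiosis lists are shown as examples. They do not stand for the lists as a whole, and GCGGGAA is more frequent among them than among all list members. Whether the motifs bear on the rises was not tested. Each window runs from 250 bases before to 50 after the RefSeq start, 5′ to 3′ on the gene's strand (GRCm38.p6). Capitals mark matches, on either strand, to GCGGGAA (E2F-type), CACGTG (an E-box) or CCTCAG (the core of the motif bound by STRA8).

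Stra8 promoter, chr6:34920698-34920997, plus strand: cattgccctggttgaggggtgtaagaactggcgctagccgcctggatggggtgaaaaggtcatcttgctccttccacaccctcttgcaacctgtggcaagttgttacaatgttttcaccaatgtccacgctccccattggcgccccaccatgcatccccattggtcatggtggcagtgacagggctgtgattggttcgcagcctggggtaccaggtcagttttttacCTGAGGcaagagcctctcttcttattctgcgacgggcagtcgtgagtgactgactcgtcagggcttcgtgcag
Meioc promoter, chr11:102665335-102665634, plus strand: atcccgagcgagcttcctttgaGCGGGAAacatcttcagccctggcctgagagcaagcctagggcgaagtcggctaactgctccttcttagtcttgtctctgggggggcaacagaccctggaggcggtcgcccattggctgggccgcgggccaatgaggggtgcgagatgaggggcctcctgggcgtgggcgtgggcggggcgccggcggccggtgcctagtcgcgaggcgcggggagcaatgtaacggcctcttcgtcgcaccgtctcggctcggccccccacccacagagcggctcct
Spata22 promoter, chr11:73329491-73329790, plus strand: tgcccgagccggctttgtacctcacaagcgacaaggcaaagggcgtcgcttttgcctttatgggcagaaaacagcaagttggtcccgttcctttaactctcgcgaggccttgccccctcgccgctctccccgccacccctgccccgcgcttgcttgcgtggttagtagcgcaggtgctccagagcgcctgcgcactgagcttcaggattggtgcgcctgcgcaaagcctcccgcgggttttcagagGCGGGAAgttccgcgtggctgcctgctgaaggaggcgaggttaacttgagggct
Tex12 promoter, chr9:50561219-50561518, minus strand: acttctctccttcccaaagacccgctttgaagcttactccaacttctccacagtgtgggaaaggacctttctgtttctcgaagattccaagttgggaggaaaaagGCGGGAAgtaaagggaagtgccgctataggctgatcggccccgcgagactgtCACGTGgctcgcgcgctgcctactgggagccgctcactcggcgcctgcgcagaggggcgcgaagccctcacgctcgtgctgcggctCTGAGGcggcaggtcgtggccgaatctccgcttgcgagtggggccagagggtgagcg
Sycp3 promoter, chr10:88459337-88459636, plus strand: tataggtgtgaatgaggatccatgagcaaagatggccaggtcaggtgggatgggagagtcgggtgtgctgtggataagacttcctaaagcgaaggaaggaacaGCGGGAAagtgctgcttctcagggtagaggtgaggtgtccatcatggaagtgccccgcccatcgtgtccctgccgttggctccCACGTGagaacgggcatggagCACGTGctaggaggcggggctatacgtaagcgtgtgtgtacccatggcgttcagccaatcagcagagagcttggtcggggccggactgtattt

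The Stra8 window held 1 CCTCAG match, read on the opposite strand as CTGAGG, and neither of the others. Meioc and Spata22 each held 1 GCGGGAA. Tex12 held 1 match of each kind, and Sycp3 held 1 GCGGGAA and 2 CACGTG. A promoter was found for 15563 of the genes tested and for 49 members of the 3 meiosis lists. GCGGGAA stood in 32.7% of those 49, in 16.2% of the 419 genes with a promoter that rose by at least 1, in 9.43% of the 424 that fell by at least 1, in 7.39% of all tested genes and in 4.60% of all RefSeq promoters. CCTCAG stood in 49.0%, 37.9%, 26.4%, 29.9% and 26.8% of the same groups. CACGTG stood in 20.4%, 12.9%, 13.9%, 9.52% and 7.15%. DR5, the direct repeat of the retinoic acid receptor half-site, was in 0.00913% of all promoters and in none of the genes that rose by at least 1. The windows also differed in base composition, with a median GC content of 61.3% for the meiosis lists, 63.0% for the genes that rose and 57.5% for all tested genes, and the part of GC content in these shares was not tested.

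Components of the chromosome axis and the synaptonemal complex rose next. In that list, 15 of 20 measured genes rose and none fell (median 1.51). Sycp1, the transverse filament of the complex, read 6.38, 7.16 and 6.40 early and 10.72, 10.81 and 11.01 late, a rise of 4.20 ± 0.25. Sycp2, an axis protein, read 5.43, 5.99 and 5.53 early and 9.73, 9.20 and 10.31 late. Tex12, of the central element, was the least even at 11.5 dpc, with 4.89, 6.24 and 4.74, and stood at 9.20, 9.63 and 10.25 at 13.5 dpc. Terb1, which ties telomeres to the nuclear envelope, read 5.32, 5.07 and 4.96 and then 8.84, 7.70 and 8.89. Sycp3, the partner of SYCP2 in the axis, started high at 9.44, 9.64 and 8.96 and rose by 1.6 ± 0.29 to 11.24, 10.57 and 11.03, a call lost with all 36 arrays (adjusted p = 0.0766). Syce1, another central element gene, rose by 2.24 ± 0.21. No overlap between stages was a condition for naming Sycp1, Sycp2, Tex12 and Terb1 among the largest rises. Early and late arrays of Sycp3 and Syce1 did not overlap either, as for 36.03% of all genes.

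Genes of meiotic recombination rose too, with 22 of 27 measured members higher, 2 lower and a median of 1.21. The single-strand DNA-binding partners Meiob and Spata22 rose by 4.07 ± 0.25 and 3.86 ± 0.19. Meiob read 4.98, 5.21 and 4.69 early and 8.95, 8.70 and 9.44 late. Dmc1, the meiotic strand-exchange recombinase, read 7.84, 8.25 and 7.48 early and 10.77, 10.63 and 11.38 late (3.07 ± 0.30). Prdm9, the histone methyltransferase that places recombination hot spots, read 6.21, 6.42 and 6.32 early and 9.03, 9.17 and 10.47 late (3.24 ± 0.25). Spo11, whose product makes the DNA breaks, rose less, by 1.83 ± 0.23, from 6.56, 6.30 and 5.58 to 7.75, 7.77 and 8.43. Hfm1, a crossover helicase gene, rose by 3.21 ± 0.23. The lower members, named here after their values were seen, were Helb, a DNA helicase gene (-1.30), and Psmc3ip, whose product assists DMC1 (-0.54). The Psmc3ip call was lost with the row sets aligned (adjusted p = 0.242).

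The retinoic acid pathway showed a mixed pattern, with 4 of 20 members higher, 2 lower and a median of 0.11, which was -0.01 with the row sets aligned. Over all genes 8.29% were higher and 10.79% lower. Rdh10, which makes retinaldehyde from retinol, read 7.50, 7.72 and 7.40 early and 9.08, 9.05 and 9.33 late, a rise of 1.61 ± 0.18. Crabp2, a retinoic acid carrier, rose by 1.39 ± 0.27, and Rbp4, the retinol carrier, by 0.71 ± 0.18. The remaining calls were those of Crabp1 (0.70 ± 0.25), Aldh1a2 (-0.54 ± 0.20) and, outside the naming rule, Rxrb (-0.50), and all 3 were lost with the row sets aligned (adjusted p = 0.322, 0.482 and 0.265). The Crabp1 call was also lost without any single array (adjusted p from 0.0604 to 0.228) except replicate 1 of 13.5 dpc, and the Aldh1a2 call without any (0.0636 to 0.252) except replicate 3 of 13.5 dpc. For Cyp26b1, the degrading enzyme of the testis, the difference was -0.08.

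Among BMP receptors and targets, 2 of 21 members rose and 2 fell (median 0.15), a count near the 19.08% called over all genes. The higher ones were Smad5, a signal transducer (0.85 ± 0.20), and Tfap2a (0.49 ± 0.16, lost with the row sets aligned, adjusted p = 0.385, and without replicate 1 or 3 of 11.5 dpc or replicate 2 or 3 of 13.5 dpc, 0.0557 to 0.0986). The lower ones were Hey1 and the inhibitory Smad7 (-0.77 ± 0.17). With the row sets aligned the count was larger, with 6 of the 21 members higher and 2 lower (median 0.06). In that setting 1826 of all 19938 genes rose and 2476 fell. The inhibitor-of-differentiation genes, direct BMP targets, overlapped between the stages: Id1 read 8.56, 8.63 and 8.27 early and 8.41, 8.94 and 8.23 late, and Id3 read 8.89, 9.53 and 9.08 early and 8.79, 9.58 and 9.26 late. Differences were 0.04 ± 0.21 for Id1, 0.07 ± 0.28 for Id2 and 0.04 ± 0.22 for Id3. In the WNT target list 4 of 11 members rose and 1 fell. Cdx2, a homeobox gene, rose by 1.29 ± 0.20 and Ccnd1, encoding cyclin D1, by 1.21 ± 0.25. Lef1, a nuclear effector of WNT, fell by 0.72 on the log2 scale. Axin2 (0.52) and Sp5 (0.62) were the other higher members, and each lost its call when single arrays were left out, Axin2 without replicate 1 (adjusted p = 0.123) or 3 (adjusted p = 0.0594) of 11.5 dpc or replicate 1 of 13.5 dpc (adjusted p = 0.0919), and Sp5 without any single array (adjusted p from 0.0742 to 0.134) except replicate 1 of 11.5 dpc.

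Genes that mark germ cells as such mostly rose, with 12 of 17 members higher and 3 lower (median 1.66). Slc25a31, a germ cell ADP/ATP carrier, rose by 2.40 ± 0.22, Brdt, a germ cell bromodomain protein, by 2.34 ± 0.17 and Tex13b by 2.05 ± 0.22. Ddx4 read 10.68, 10.90 and 10.76 early and 11.67, 12.14 and 12.18 late (1.22 ± 0.27, a call lost with all 36 arrays, adjusted p = 0.284). The 3 lower members were Nanos3, Pou5f1 and Dnd1, which also stand in the lists of early germ cell genes below. The piRNA pathway, which silences transposons with small RNAs, had 8 of 18 members higher and 1 lower (median 0.43). Gtsf1 rose by 2.08 ± 0.20, Mael by 2.02 ± 0.22, Tdrd7 by 1.96 ± 0.19 and Tdrd1 by 1.25 ± 0.22. Mael, for example, read 8.97, 9.54 and 8.85 early and 11.30, 10.98 and 11.12 late. The lower piRNA member, named after its value was seen, was Pld6 (-0.52, lost with the row sets aligned, adjusted p = 0.198).

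**Figure D2:**
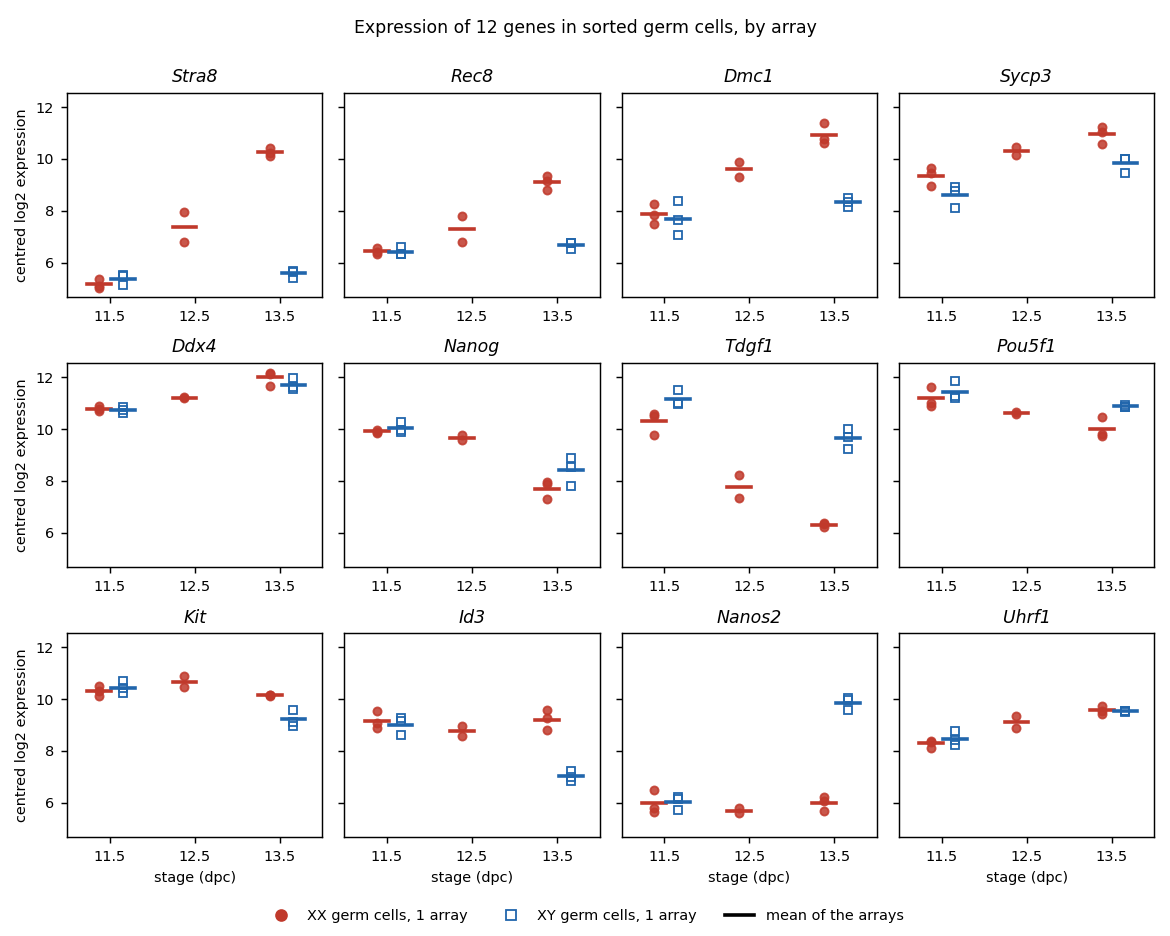
Centred log2 expression of 12 genes by stage, with filled circles for single XX germ cell arrays, open squares for single XY germ cell arrays (not drawn at 12.5 dpc) and bars for means. Stra8, Rec8 and Dmc1 climb in XX cells, Tdgf1 and Nanog fall, and Kit, Id3 and Nanos2 show no XX change past the test while the XY arrays move.

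Pluripotency genes fell. Of 21 measured members, 16 fell and none rose (median -1.17). Tdgf1 read 10.59, 10.52 and 9.78 early, 8.21 and 7.33 at 12.5 dpc, and 6.32, 6.37 and 6.23 late, a difference of -3.99 ± 0.23 (15.8-fold lower, adjusted p = 9.6e-16). Nanog held at 9.57 and 9.76 at 12.5 dpc, close to its early 9.85, 9.98 and 9.90, and stood at 7.95, 7.87 and 7.28 late (-2.21 ± 0.19). Zfp42, the stem cell gene also called Rex1, fell by 2.33 on the log2 scale, Utf1 by 2.06 and Fbxo15 by 1.59. Sox2 read 9.95, 9.96 and 10.00 early and 8.67, 8.65 and 8.37 late (-1.41 ± 0.17). Pou5f1 changed less and stayed bright, from 10.90, 11.02 and 11.62 to 10.48, 9.82 and 9.73 (-1.17 ± 0.22, adjusted p = 1.17e-04). Early and late arrays overlapped for none of these genes, which for Tdgf1 was a condition of its naming. Over all genes 36.03% had no overlap. With all 36 arrays the calls of Pou5f1 (adjusted p = 0.251), Sox2 (0.11) and Fbxo15 (0.121) were lost. In the list of primordial germ cell factors, 8 of 13 fell and none rose (median -0.80). Nanos3, needed for survival of migrating germ cells, read 9.40, 9.42 and 9.72 early and 7.70, 7.69 and 7.65 late (-1.84 ± 0.17). Tfap2c fell by 1.83, Cxcr4, the homing receptor, by 1.16, Dnd1 by 1.11 and Prdm1, encoding BLIMP1, by 0.86 on the log2 scale (Prdm1 adjusted p = 0.213 with all 36 arrays). Kit (-0.15 ± 0.18) and Dppa3 (-0.33 ± 0.23) did not pass the test. For Kit the call appeared with the row sets aligned (-0.51, adjusted p = 0.018), and for Dppa3 with the mean of its probe sets in place of the brightest (-0.78, adjusted p = 0.0063).

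Of 22 genes of the oocyte programme, 3 passed the test as higher and 1 as lower, with a median of 0.01, and this count is near the 19.08% called over all genes. Sohlh2 rose by 1.17 ± 0.18 and Taf4b by 1.13 ± 0.20, both being factors needed for early oocytes, and both calls were lost with all 36 arrays (adjusted p = 0.0612 and 0.0811). Npm2 (0.67) lost its call with the row sets aligned (adjusted p = 0.316) or without replicate 1 (0.0684) or 3 (0.0588) of 11.5 dpc or replicate 2 of 13.5 dpc (0.171), and Ooep (-0.90) lost it without replicate 3 of 13.5 dpc (-0.65, adjusted p = 0.0526). Nobox, a follicle-stage regulator, differed by 0.04 ± 0.18. Figla read 6.22, 5.86 and 5.86 early and 6.57, 5.83 and 6.27 late (0.25 ± 0.18), a difference that passed with the row sets aligned (0.50, adjusted p = 6.93e-04). Male differentiation genes did not rise as a group, with 7 of 17 lower and 1 higher (Mov10l1, 1.21 ± 0.21, lost with all 36 arrays, adjusted p = 0.0948). Morc1, a transposon silencing gene of male germ cells, read 8.28, 7.91 and 8.06 early and 6.18, 6.00 and 6.05 late (-2.01 ± 0.22), and Etv1 fell by 1.82. Nanos2 read 5.65, 6.50 and 5.81 early and 5.69, 6.24 and 6.06 late, a difference of 0.01 ± 0.22. In the NODAL and activin list, 5 of 11 members fell, led by Tdgf1, Lefty2 (-1.09 ± 0.21), Foxh1 (-1.02 ± 0.18) and Lefty1 (-0.77 ± 0.20). Acvr2a, an activin receptor gene, was 1 of the 2 higher members (1.05 ± 0.24). In the NOTCH list of 15, Hey1 was lower and Dll3 higher (0.52), a count near the share over all genes. The Dll3 call was lost with the row sets aligned (adjusted p = 0.289). It was also lost without replicate 1 or 3 of 11.5 dpc or replicate 2 of 13.5 dpc (0.0521 to 0.23). With the row sets aligned 1 NOTCH member rose and 3 fell, while 1826 of all 19938 genes rose and 2476 fell.

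Of 14 genes of DNA methylation 1 rose and 3 fell, against 8.29% and 10.79% over all genes. Uhrf1, which recruits DNMT1 to replicated DNA, read 8.36, 8.10 and 8.40 early, 9.35 and 8.89 at 12.5 dpc, and 9.53, 9.43 and 9.74 late (1.28 ± 0.19, adjusted p = 3.03e-06), and was the higher member. Dnmt1 differed by -0.22 ± 0.18. The 3 lower members were Gadd45a (-0.99 ± 0.24), Uhrf2 (-0.62 ± 0.18) and Apobec1 (-0.50, lost with the row sets aligned, adjusted p = 0.196, and without replicate 1 or 2 of 11.5 dpc or replicate 2 or 3 of 13.5 dpc, 0.0631 to 0.0886). The Uhrf2 call was lost without replicate 3 of 11.5 dpc (adjusted p = 0.0662) or replicate 2 (0.0966) or 3 (0.076) of 13.5 dpc. Of 21 Polycomb and related repressors, 6 fell and 1 rose, among them Pcgf6 (-0.82 ± 0.18), Cbx3 (-0.72 ± 0.16) and Max (-0.67 ± 0.17), parts of the PRC1.6 complex.

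Genes of mitosis and DNA replication were more often lower than higher. In the mitosis and spindle list 8 of 25 fell and 1 rose (median -0.47), against 10.79% lower and 8.29% higher over all genes. With quantile normalisation 6 fell and 2 rose (median -0.33). Aurka, a spindle kinase gene, read 10.81, 10.67 and 10.19 early and 8.92, 9.43 and 8.87 late (-1.48 ± 0.26). Aurkb fell by 1.30, and Bub1b and Cenpa each by 1.17 on the log2 scale. Mki67 (0.10) and Top2a (0.02) did not pass. Of 29 DNA replication genes, 9 fell and 3 rose (median -0.31), and with quantile normalisation 7 fell and 5 rose. Mcm10 fell by 1.10 and Rrm2 by 0.93, while Ccne2, encoding cyclin E2, rose by 1.41 ± 0.28 from 8.29, 8.84 and 7.62 to 9.47, 9.33 and 10.19. In the list of CDK inhibitors and G1 cyclins 5 of 17 rose and 2 fell. Cdk4 fell by 1.25 ± 0.18, Ccnd1 rose as given above, and Cdkn2a (0.88 ± 0.17) and Rb1 (0.87 ± 0.16; adjusted p = 0.0887 with all 36 arrays), brakes on the cell cycle, rose. Cdkn1b (-0.70 ± 0.36) did not pass (adjusted p = 0.163), but did so in a fit of the 6 arrays alone (adjusted p = 0.0054).

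Sugar metabolism and cell contacts changed as well. Over all genes 10.79% were lower and 8.29% higher, the background of each list in this paragraph. Of 17 glycolysis genes 9 fell and 1 rose (median -0.63). Pfkp read 9.55, 9.56 and 9.94 early and 6.92, 6.69 and 6.76 late (-2.89 ± 0.22), and Slc2a3, a glucose transporter gene, fell by 1.50, Aldoa by 1.35, Pgam1 by 1.29 and Pkm by 1.15. Oxidative phosphorylation had 3 of 23 higher and 2 lower (median -0.07), near the share over all genes, led by Uqcrc2 (0.83 ± 0.18). The other 2 higher calls, Uqcrc1 and Ndufs1, were lost with the row sets aligned (adjusted p = 0.201 for each), and that of Ndufs1 also without replicate 3 of either stage (0.0701 and 0.0722). Of the 2 lower calls, Cox7a2 was lost with the row sets aligned (adjusted p = 0.1) and under quantile normalisation (0.229). The other, Cycs, was lost without replicate 2 of 13.5 dpc (0.0532). Cholesterol synthesis had 5 of 17 lower and 1 higher, with Sqle, the squalene epoxidase gene, at -0.87 ± 0.18. The higher call, Nsdhl, was lost without any single array (adjusted p from 0.0566 to 0.148) except replicate 3 of 11.5 dpc. Among the lower calls, Lss was lost without any single array (0.0564 to 0.139) except replicate 1 of 11.5 dpc. Fdft1 was lost with the row sets aligned (0.0594), and Srebf2 without replicate 2 of 13.5 dpc (0.0683). Among niche receptors and adhesion genes 3 of 17 rose and 6 fell. Cdh1, E-cadherin, read 8.59, 8.69 and 8.36 early and 7.59, 7.42 and 7.41 late (-1.08 ± 0.16), whereas Cdh2, N-cadherin, read 6.41, 6.73 and 6.67 early and 7.84, 8.36 and 8.23 late (1.54 ± 0.17). Itga6, an integrin gene, rose by 1.22 ± 0.21 and Cldn6, a tight junction gene, by 0.99 ± 0.23. Of 14 genes of p53 and cell death 3 were higher and 2 lower. Mcl1, a survival factor gene, had the difference -1.09 ± 0.18. The other 4 calls were not stable. Trp73 (0.43) turned to -0.02 with the row sets aligned and lost its call without any single array (adjusted p from 0.0869 to 0.171) except replicate 1 of 13.5 dpc. Bcl2 (0.64) lost it with the row sets aligned (adjusted p = 0.204) or without replicate 3 of 11.5 dpc (0.133) or replicate 2 of 13.5 dpc (0.175). Bcl2l1 (0.67) lost it without replicate 1 of 11.5 dpc (adjusted p = 0.0585) or replicate 2 (0.116) or 3 (0.0578) of 13.5 dpc. Bak1 (-0.65) lost it with the row sets aligned (adjusted p = 0.0892) or without any single array (0.0572 to 0.156) except replicate 2 of 11.5 dpc.

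**Figure D3:**
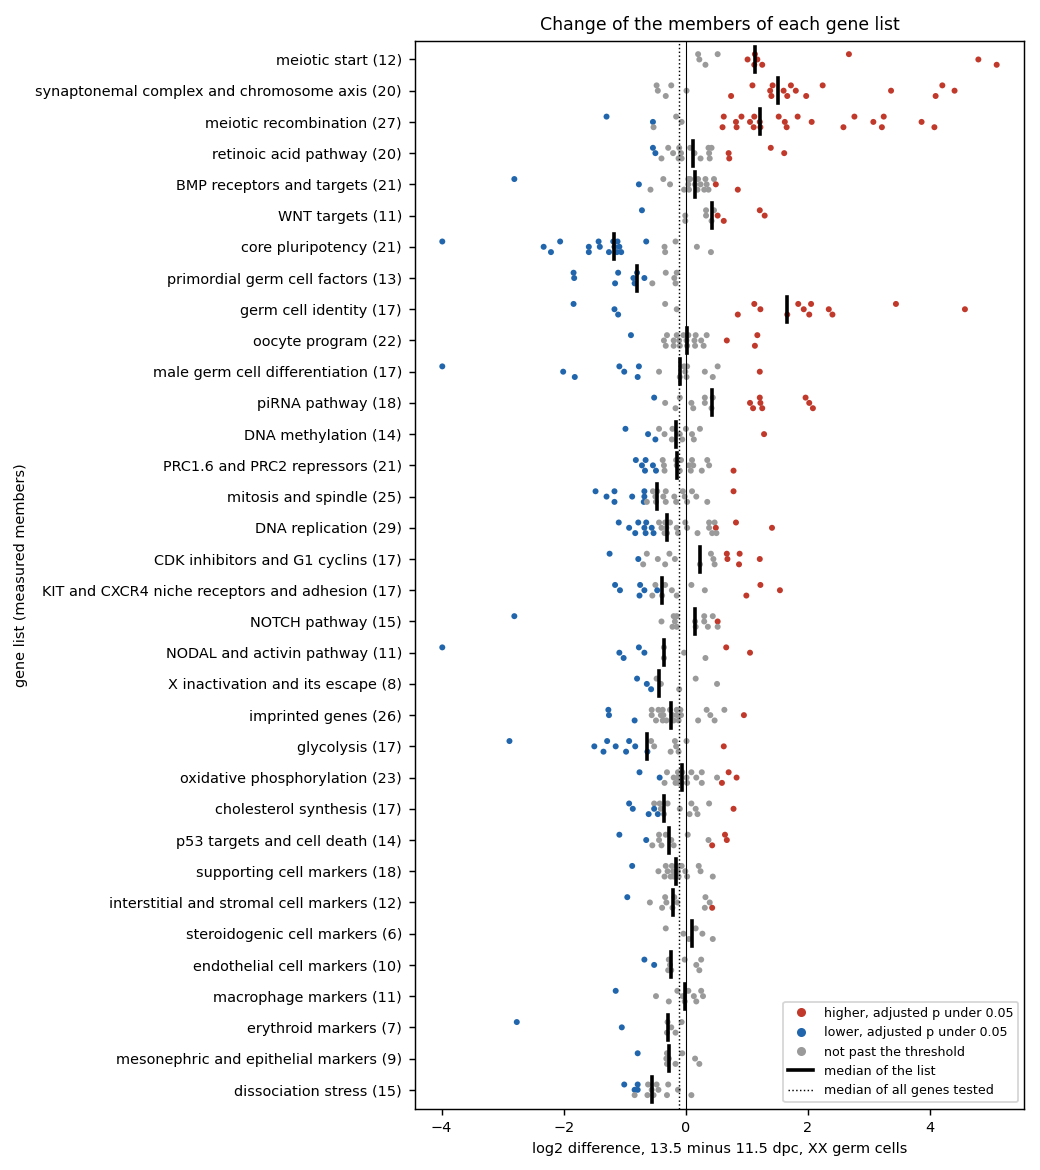
Each row is a gene list and each point a measured member, placed by its log2 difference between 13.5 and 11.5 dpc in XX germ cells; red and blue points passed the test, thick bars are list medians and the dotted line is the median of all genes at -0.11. The 3 meiosis lists and germ cell identity lie to the right, with medians from 1.13 to 1.66, and core pluripotency, primordial germ cell factors and glycolysis lie to the left.

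X-linked genes were higher at 13.5 dpc more often than the genes of any single autosome. Of the X chromosome's 739 genes, 16.4% were higher and 8.93% lower at 13.5 dpc, whereas single autosomes had 6.40% to 9.66% higher and 8.55% to 14.0% lower. The median X-linked difference was 0.00 against -0.15 to -0.08 for the autosomes. The array medians of X-linked genes were 6.40, 6.39 and 6.38 early and 6.60, 6.49 and 6.57 late, and the stages did not overlap. They did not overlap for chromosomes 10 and 16 or the 9 Y-linked genes either, where the late medians were the lower ones. With the row sets aligned the X share was 19.6% higher against 6.46% to 12.9%, and with quantile normalisation 19.4% against 8.02% to 12.1%. In XY germ cells over the same interval, 6.90% of X-linked genes rose, against 2.36% to 5.40% on autosomes, and the median X-linked difference was -0.03. Genes whose change was higher in XX than in XY made up 7.04% of X-linked genes and 1.07% to 2.73% of those on single autosomes. Xist, the RNA that silences an X chromosome, read 6.61, 7.80 and 6.77 early and 6.93, 6.92 and 6.99 late, a difference of -0.11 ± 0.31 (adjusted p = 0.791). In the list of X inactivation and escape genes, 3 of 8 fell and none rose: Ddx3x (-0.80), Eif2s3x (-0.64) and Rlim (-0.57, lost without replicate 1 of 11.5 dpc at adjusted p = 0.115, replicate 2 of 13.5 dpc at 0.0618 or under quantile normalisation at 0.0762). No Y-linked gene of 8 passed in XX cells. Of 26 imprinted genes, 1 rose and 3 fell, near the 19.08% called over all genes: Zdbf2 (0.95), Peg10 (-1.27), Impact (-1.26) and Mest (-0.84). With the row sets aligned 3 imprinted genes rose and 4 fell, while 1826 of all 19938 genes rose and 2476 fell. The Zdbf2 call was lost without replicate 3 of 13.5 dpc (adjusted p = 0.0632), the Peg10 call with all 36 arrays (0.126), and the Mest call with all 36 arrays (0.185) or without replicate 2 or 3 of either stage (0.0524 to 0.137).

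**Figure D4:**
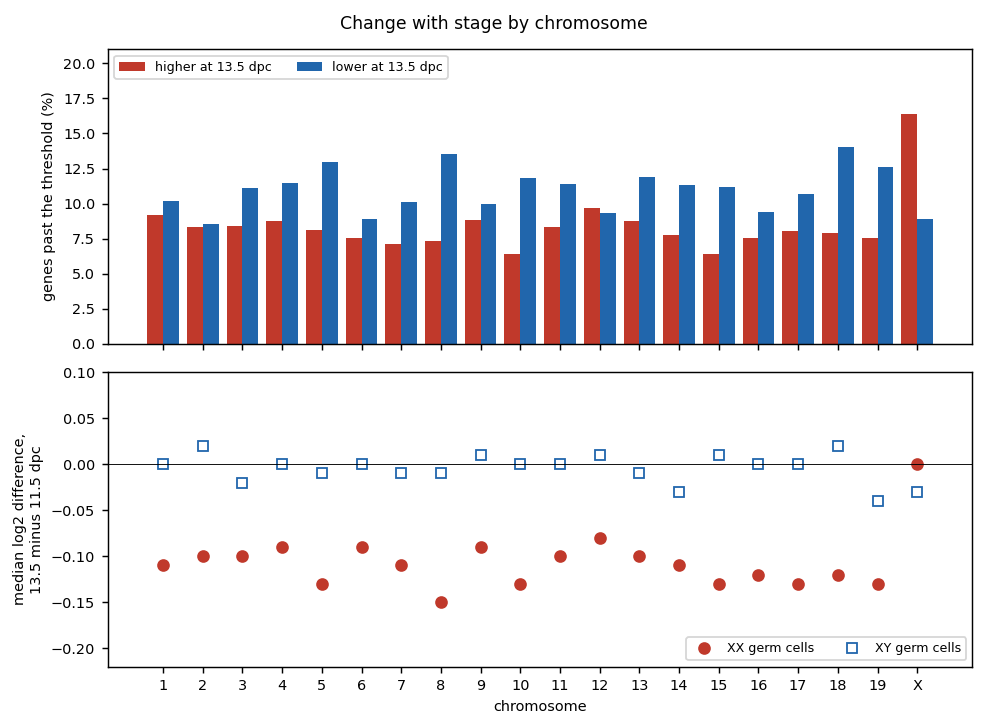
Upper panel, percentage of each chromosome's genes that were higher (red) or lower (blue) at 13.5 dpc in XX germ cells; lower panel, median log2 difference per chromosome in XX (filled) and XY (open) germ cells. The X chromosome has the tallest red bar, 16.4%, and an XX median of 0.00, above every autosome.

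At 12.5 dpc, in the 2 arrays used, genes had on the median covered part of their change. The 500 genes that rose by at least 1 had reached a median of 37.2% of their change (quartiles 21.3% and 56.3%), and the 568 that fell by as much had reached 36.5% (20.1% and 52.2%). Replicates 1 and 2 alone gave 37.9% and 36.3% for the rising genes, and 36.3% and 41.4% for the falling genes. Among the largest rises, Ccdc172 had reached 53.8%, Sycp1 45.6% and Stra8 43.4%, whereas Tex101 stood at 16.5%, Spata22 at 8.20% and Terb1 at 3.77%. Dmc1 had reached 56.7% and Prdm9 19.3%. Among the largest falls, H2bc4, a histone H2B gene, had reached 82.8%, Tdgf1 63.3% and Lncenc1, a long noncoding RNA, 16.2%. The 2 arrays were not alike: Meioc read 7.95 in replicate 1 and 5.47 in replicate 2, and Stra8, Taf7l and Tex12 were also higher in replicate 1.

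Markers of other cells were measured in the same arrays, where the 75th percentile of all values was 8.32, and some of them moved with stage. Of 18 supporting cell markers, 1 was lower (Nr0b1, -0.88, lost with the row sets aligned, adjusted p = 0.101, and without replicate 1 of 11.5 dpc or replicate 1 or 3 of 13.5 dpc, 0.0777 to 0.338) and none higher, and their highest member, Wnt4, lay between 8.20 and 8.60 in the 6 arrays. Erythroid markers summed to 47.5 to 50 early and 42.8 to 44.2 late, with 2 of 7 lower. Hbb-y, an embryonic globin gene, read 8.93, 9.23 and 10.29 early and 7.09, 5.97 and 7.08 late (-2.77 ± 0.82, adjusted p = 0.0134). That call was lost without replicate 3 of 11.5 dpc (adjusted p = 0.0737) or replicate 2 of 13.5 dpc (adjusted p = 0.081), and with the row sets aligned (adjusted p = 0.0675). Hba-x, another embryonic globin gene, fell by 1.05, a call lost without replicate 3 of 11.5 dpc (adjusted p = 0.0851). Tyrobp, of macrophages, read 8.46, 8.27 and 7.80 early and 7.08, 6.93 and 7.07 late (-1.15 ± 0.24) and was the 1 macrophage marker of 11 to pass. Sums for the other lists were, early and late, 81.6 to 84.2 and 79.5 to 84.5 for 12 stromal markers (1 higher, 1 lower), 39.4 to 40.7 and 39.9 to 41.5 for 6 steroidogenic (none), 62.8 to 63.7 and 61.2 to 61.9 for 10 endothelial (2 lower), and 64.8 to 65.2 and 62.0 to 64.0 for 9 mesonephric and epithelial markers (1 lower). Stromal sums were 83.7 to 88.2 in XX supporting cells. The higher stromal call, Col1a1 (0.43), was lost with the row sets aligned (0.04, adjusted p = 0.759) and without any single array (0.0742 to 0.273) except replicate 1 of 13.5 dpc. The lower one, Nr2f2 (-0.96), was lost without replicate 2 of 11.5 dpc (adjusted p = 0.053) or replicate 3 of 13.5 dpc (0.0595). Of the endothelial calls, Tek (-0.52) was lost with the row sets aligned (adjusted p = 0.0579) or without replicate 1 or 3 of 11.5 dpc or replicate 2 or 3 of 13.5 dpc (0.0511 to 0.186), and Cdh5 (-0.68) without replicate 3 of 11.5 dpc (0.221) or replicate 2 (0.103) or 3 (0.0927) of 13.5 dpc. Of 15 genes induced by dissociation stress 4 were lower (median -0.56), with sums of 111.8 to 120.5 early and 106.0 to 110.4 late. Among these calls, Fosb and Egr1 were lost with the row sets aligned (adjusted p = 0.0629 and 0.113) and without replicate 2 of 11.5 dpc (0.117 and 0.122). The part of these other cells or of handling in the stage differences was not tested.

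The change of XX germ cells was then set against that of XY germ cells in the same fit, which tests whether the sexes move differently. XY germ cells had 1788 genes past the threshold over the interval (8.97%), 800 higher (4.01%) and 988 lower (4.96%). Genes higher in both sexes numbered 348, which is 21.1% of the XX and 43.5% of the XY rises, and genes lower in both numbered 575, which is 26.7% and 58.2% of the falls. The change itself differed between the sexes for 863 genes (4.33%), with XX above XY for 427 (2.14%) and below for 436 (2.19%). Among the first, 319 had risen in XX and 119 had fallen in XY cells. Among the second, 272 had fallen in XX and 176 had risen in XY cells. With the row sets aligned 1559 genes differed, with all 36 arrays 446, and without replicate 3 of 13.5 dpc XX 575.

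Genes of meiotic start and recombination carried the largest differences in favour of XX. Stra8 stayed at 5.13, 5.48 and 5.53 and then 5.41, 5.64 and 5.69 in XY cells, so that the changes differed by 4.89 ± 0.27 (adjusted p = 5.32e-16). The same comparison gave 4.49 for Meioc, 3.96 for Meiob, 3.90 for M1ap, 3.81 for AU015836, 3.69 for Spata22, 3.46 for 1700013H16Rik and 3.32 for Terb1. M1ap, a meiosis gene, rose by 2.81 ± 0.20 in XX cells and fell from 7.40, 7.48 and 7.21 to 6.08, 6.23 and 6.51 in XY cells. AU015836 reached the list from the other side, since it fell by 3.28 in XY cells and differed by 0.52 in XX cells (adjusted p = 0.145). Over the 3 meiosis lists, 24 of 59 genes had a higher change in XX and none a lower one, 45 had risen in XX cells and 16 in XY cells. The synaptonemal complex was shared in part. Sycp2 rose by 3.56 ± 0.23 in XY cells and its change did not differ (0.53 ± 0.33, adjusted p = 0.429), and Sycp1 rose by 3.07 ± 0.25 in XY cells with a difference of 1.13 ± 0.36 that missed the threshold (adjusted p = 0.0632). For Rec8, Dmc1 and Prdm9 the sexes differed by 2.41, 2.43 and 2.95, and none of the 3 passed in XY cells. The Dmc1 difference between the sexes was lost with all 36 arrays (adjusted p = 0.054).

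Several genes moved in XY cells without a call in XX cells. Id3 fell from 9.29, 8.60 and 9.17 to 6.85, 7.23 and 6.99 in XY cells, and Id2 from 7.66, 7.15 and 8.09 to 5.05, 6.26 and 5.65. The differences between the sexes were 2.04 ± 0.31 and 2.05 ± 0.40 (adjusted p = 4.4e-05 and 0.0011). Kit fell by 1.22 ± 0.18 in XY cells, giving a difference of 1.07 ± 0.25 that was lost with all 36 arrays (adjusted p = 0.522). Crabp1 fell by 1.49 ± 0.25 in XY cells and its change differed by 2.20 ± 0.36 (adjusted p = 1.04e-04). Nanos2 rose from 6.15, 5.72 and 6.24 to 9.95, 9.57 and 10.06 in XY cells, a difference of -3.81 ± 0.31. Mgst2 (-4.09), Hesx1 (-3.36), Dgka (-2.91), Tdrd5 (-2.65) and Cst9 (-2.62) also had lower changes in XX cells, and each rose in XY cells. Cst9 stands in the list of supporting cell markers, and the part of such cells in the XY arrays was not tested. Fabp9 (-3.12) and Morc1 (-2.66) fell in XX cells and did not pass in XY cells. Cdh1 rose by 0.75 ± 0.16 in XY cells against its XX fall, with a difference of -1.82 ± 0.23 (adjusted p = 9.92e-07), while Cdh2 did not pass in XY cells (0.18 ± 0.17) and its change differed by 1.37 ± 0.24 (adjusted p = 3.79e-04). Ccne2 differed by 2.20 ± 0.40. Cdkn1b differed by -1.81 ± 0.51 (adjusted p = 0.0285), a call lost without any 1 of 5 arrays, with adjusted p between 0.065 and 0.118. For pluripotency, 5 of 21 changes lay lower in XX, among them Tdgf1 (-2.46 ± 0.33), Utf1 (-1.64 ± 0.34) and Zfp42 (-1.44). These genes fell in XY cells too, with 12 of 21 lower and none higher (median -0.68). Of 13 primordial germ cell factors, 7 fell and none rose in XY cells. Of 17 germ cell identity genes, 10 rose and 1 fell there. Of 18 piRNA genes, 14 rose and none fell there, against 8 and 1 in XX cells. Over all genes 4.01% rose and 4.96% fell in XY cells.

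**Figure D5:**
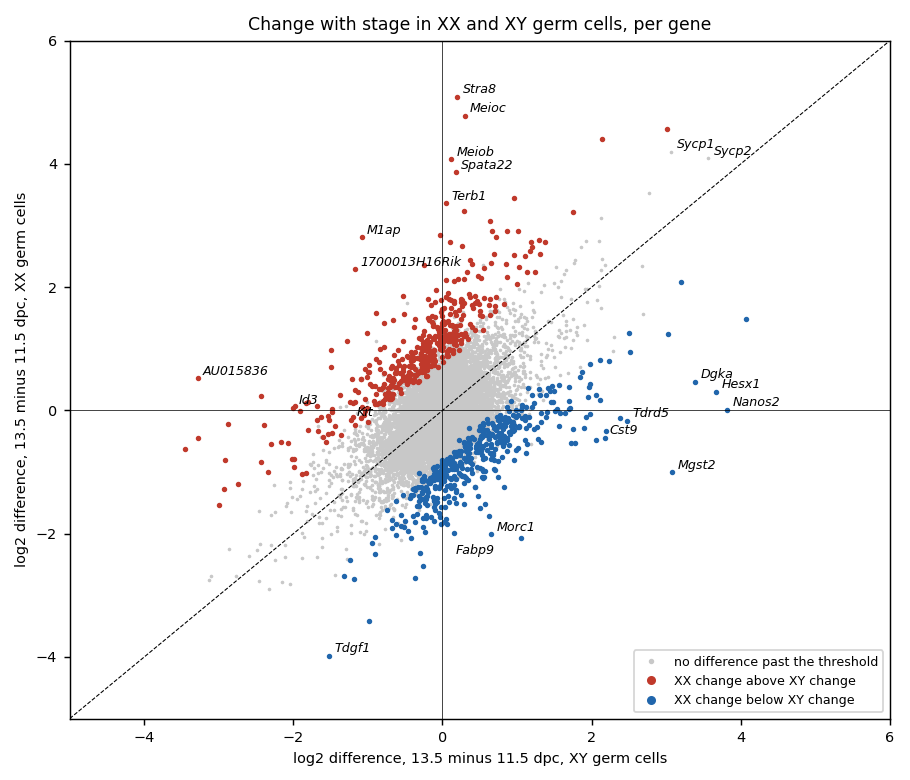
Each point is a gene, with the log2 difference between 13.5 and 11.5 dpc in XY germ cells on the horizontal and in XX germ cells on the vertical axis; red and blue points have changes that differ between the sexes and the dashed line marks equal change. Stra8 and Meioc sit above 4 on the vertical axis with an XY change near 0, and Nanos2, Hesx1 and Dgka sit to the right with XX changes below 0.5.

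Against XX supporting cells from the same stages, the germ cell change differed for 2171 genes (10.89%), with 829 above (4.16%) and 1342 below (6.73%), a split that became 1004 and 1068 after quantile normalisation. With the row sets aligned 3540 genes differed and with all 36 arrays 1433. Supporting cells had 1001 genes past the threshold over the interval (5.02%), 603 higher (3.02%) and 398 lower (2.0%). The cell types differ in reporter line and strain as well, and these cannot be told apart from cell type. Taf7l showed the largest difference of this kind, 6.37 ± 0.44, as it fell by 1.80 in supporting cells, from a mean of 10.06 to 8.25, and rose in germ cells. Stra8 (4.86), Meioc (4.73) and Sycp2 (3.86) did not pass in supporting cells, nor did Tdgf1 (-3.70) and Gtsf1l (-3.28). The remaining named genes moved chiefly in supporting cells: Pnliprp2 (4.98) fell by 5.47 there, and Ldb2 (-3.89) and Gstm6 (-3.59) rose by 3.33 and 3.60. Mir18, a microRNA gene of the Mir17 cluster, fell by 2.41 in germ cells and rose by 1.13 in supporting cells (-3.55).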

How the data were processed

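Gene expression was measured on 36 arrays, 3 in each of 12 groups. The deposited table holds log2 expression per probe set, and the submitters' processing notes name RMA, with no version given there. Of 35557 probe sets, 21789 carry 1 gene symbol in the platform annotation; 1621 with several and 12147 not listed were left out. Where a gene had several probe sets (999 genes), the one with the highest mean stood for it, giving 19938 genes. Array medians ranged from 6.539 to 7.001, so each array was centred. The deposited log2 values of each array fall into 3 interleaved sets of rows (2 in 1 array), each on its own linear scale, with median gaps of 0.016 to 0.75; no source describes this step. Aligning these row sets lowered the median gene SD from 0.2064 to 0.106 at 11.5 dpc and from 0.1972 to 0.1022 at 13.5 dpc, and is the alternative called "row sets aligned".

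Group means of 35 arrays were fitted with limma 3.58.1 in R 4.3.3 (lmFit and eBayes, 23 residual degrees of freedom), which lets all groups share 1 estimate of spread. The code was tested on simulated data. A call is an adjusted p under 0.05, by Benjamini-Hochberg over 19938 genes within each contrast. Genes were picked for naming by a rule. It took the 12 largest rises and falls past the test in both the main and the aligned values with no overlap between stages, up to 5 called members of each of 35 lists, a set of known regulators, 8 genes each way between sexes, 5 each way against supporting cells, and the highest marker of each other cell type. Not all of them are described. Among those left out, the calls of Prc1, Mcm2, Gins3, Setdb1 and Pcgf2 were each lost under at least 1 alternative. Cdkn1c passed only under alternatives, such as with the row sets aligned (0.50, adjusted p = 0.00164). The gene groups, lists and this rule were chosen with earlier results of these data known. The number of arrays limits the precision. Sequences are from RefSeq.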

Additional observations from a re-analysis of the deposited data

Results flagged for a closer look

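The change between 11.5 and 13.5 dpc differed by a test of the difference itself between XX and XY germ cells for 863 genes, and between XX germ cells and XX supporting cells for 2171 genes.

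Between the sexes, the XX minus XY change was 4.89 for Stra8, 4.49 for Meioc, 3.96 for Meiob, 3.90 for M1ap, 3.81 for AU015836, 3.69 for Spata22, 3.46 for 1700013H16Rik and 3.32 for Terb1 (log2 units). It was 2.95 for Prdm9, 2.43 for Dmc1, 2.41 for Rec8, 2.05 for Id2, 2.04 for Id3 and 1.07 for Kit. In the other direction it was -4.09 for Mgst2, -3.81 for Nanos2, -3.36 for Hesx1, -3.12 for Fabp9, -2.91 for Dgka, -2.66 for Morc1, -2.65 for Tdrd5, -2.62 for the supporting cell marker Cst9 and -1.81 for Cdkn1b.

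Against supporting cells, the difference of the changes was 6.37 for Taf7l, 4.98 for Pnliprp2, 4.86 for Stra8, 4.73 for Meioc and 3.86 for Sycp2. It was -3.89 for Ldb2, -3.70 for Tdgf1, -3.59 for Gstm6, -3.55 for Mir18 and -3.28 for Gtsf1l.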

How the results depend on the processing

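The count of genes that changed in XX germ cells stayed within 1.5 times its value under all 9 alternatives (2950 to 4302) and without single arrays (2625 to 4535). The count that differed between the sexes moved to 1559 with the row sets aligned and 446 with all 36 arrays, and lay between 575 and 1090 without single arrays. The count against supporting cells moved to 3540 and 1433 under the same alternatives, and lay between 1655 and 2308 without single arrays. The causes were not tested. Of 175 named results past the test, 120 kept their call under every alternative and 55 lost it under at least 1. With the row sets aligned 20 lost it, and Trp73 turned from 0.43 to -0.02. With all 36 arrays, which adds back the array that went against its label, 35 lost it. Among them were the XX changes of Dazl, Ddx4, Pou5f1, Sox2, Sycp3, Sohlh2, Taf4b, Fbxo15, Prdm1, Mov10l1, Rb1 and Peg10.

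Groups share replicate numbers, but nothing in the labels says that a number marks a shared pool. Same-numbered XX arrays of 11.5 and 13.5 dpc deviated from their group means with correlations of 0.076, 0.203 and -0.077, and 2 of 3 correlated best with their own number. With the row sets aligned the correlations were -0.058, -0.115 and -0.038, and 0 of 3 correlated best with their own number. With a replicate block the counts were 3748, 867 and 2162.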
